A study of Arabidopsis thaliana with 30 samples.

Results

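Genes whose transcripts rose or fell in rosette leaves of *se-2* plants against wild type (WT) at 20 °C are described here by function. The members are the 3 *se-2* and 3 WT libraries of the second RNA-seq experiment, 6 of the 30 libraries of the series, and all genes counted in them. Of 32832 genes in the count table, 22659 had a count in at least 1 of these 6 libraries and 19454 were tested. The *se-2* line is *Arabidopsis thaliana* Col-0 with the T-DNA insertion SAIL_44_G12 in SERRATE (SE), which leaves an SE protein shortened at its C-terminal end, and no other allele. WT is Col-0 without an insertion. All plants of these groups were grown on soil at 20 °C for 4 weeks with 16 h of light and 8 h of dark, and RNA depleted of ribosomal RNA was sequenced from aerial tissue. The design covers a single insertion line that makes a truncated protein, so it does not show what full loss of SE does. The other libraries of the experiment, from *hen2-2* and *se-2 hen2-2*, entered the model that estimates the spread between replicates.

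SE is a zinc finger protein that binds RNA and works with the RNase III enzyme DCL1 and the double-stranded RNA binding protein HYL1 to cut primary miRNA transcripts (pri-miRNAs). The released miRNAs guide AGO proteins to complementary mRNAs, which are then cut or kept from translation. SE also takes part in splicing and in the transfer of nuclear transcripts to the RNA exosome through the NEXT complex, which holds the RNA helicase HEN2.

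The mature miRNAs of the 12 MIR genes that rose in *se-2* are shown because their seeds group them into families. Each was read from the RefSeq TAIR10.1 genome at its annotated position and runs 5′ to 3′, with the seed (bases 2 to 8) in capitals.
miR156c-5p: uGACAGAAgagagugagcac
miR159a: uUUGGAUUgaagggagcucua
miR159b-3p: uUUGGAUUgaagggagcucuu
miR164b-5p: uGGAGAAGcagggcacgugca
miR167a-5p: uGAAGCUGccagcaugaucua
miR168a-5p: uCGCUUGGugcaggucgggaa
miR171a-3p: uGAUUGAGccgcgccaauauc
miR171b-3p: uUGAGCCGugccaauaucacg
miR171c-3p: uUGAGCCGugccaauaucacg
miR172a: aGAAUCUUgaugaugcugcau
miR396b-5p: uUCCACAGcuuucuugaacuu
miR398b-3p: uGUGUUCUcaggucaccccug
MiR159a and miR159b-3p share the seed UUGGAUU. MiR171b-3p and miR171c-3p are the same sequence, and miR171a-3p begins at another base of the same family and has the seed GAUUGAG. Each of the other 7 seeds occurs in 1 raised MIR gene.

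The raised target genes are shown with the site that pairs best with the miRNA of their family, found without gaps in the annotated transcripts. Capitals mark bases that form Watson-Crick pairs with the miRNA, and lower case marks the rest.
SPL9, miR156c-5p: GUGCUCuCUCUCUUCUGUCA
AGO1, miR168a-5p: UUCCCGAgCUGCAuCAAGCuA
AGO2, miR403-3p: gGAGUUUGUGCGUGAAUCUAA
AT1G62590, miR161.2: UAGUCACgUUCAAUGCAUUGA
RPF6, miR161.2: UAGUCACUUUCAgcGCAUUGA
AT1G62590, miR400: GUuACaUAUAAUACUCUCAUA
RPF6, miR400: GUGACUUAcAAUACUCUuAUA
The SPL9 site lies in the coding sequence of exon 3 of 3 (chr2:17589066-17589085, plus strand) and leaves 1 base unpaired. The AGO1 site lies in the coding sequence of exon 2 of 23 (chr1:17891529-17891549, minus strand) and leaves 3 bases unpaired, of which 1 is a G-U pair. The AGO2 site is the only one in a 3′ UTR (chr1:11185223-11185243, plus strand), with 1 base unpaired. The miR161.2 sites lie in coding sequence at chr1:23178190-23178210 (minus strand) in AT1G62590 and at chr1:23413830-23413850 (plus strand) in RPF6, and RPF3 and AT1G62910 carry the same site sequence as RPF6. A match is a description of letters, and cutting at these sites was not tested. Among 27440 protein-coding genes searched, a site with at most 4 unpaired bases was found in 43 (0.157%) for miR156c-5p, 6 (0.0219%) for miR168a-5p, 8 (0.0292%) for miR403-3p and 35 (0.128%) for miR161.2.

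The 6 libraries held between 56.7 M and 130.2 M counts (M, 1000000 counts), and the 3 largest were *se-2* replicate 1 and WT replicates 1 and 2. Chloroplast genes took 51.3 to 68.2% of the counts in *se-2* and 51.7 to 71.8% in WT, highest in the same large libraries. Across genes, the log2 levels of *se-2* replicate 1 correlated most with those of the other large libraries, WT replicates 1 (r = 0.95) and 2 (r = 0.9315). Its correlations with *se-2* replicates 2 (r = 0.899) and 3 (r = 0.879) were lower. Its part in the comparison is shown by the values per library and by the fits without it. Levels are given as counts per 1000000 counts (CPM) on library sizes scaled by the TMM method, and fold changes as log2 values ± their standard errors from the fit. A count of 3, taken as the floor, corresponds to between 0.0216 and 0.0488 CPM. Rosette leaf was checked by markers. The 22 photosystem antenna and Rubisco genes summed to 10816 to 13782 CPM in *se-2* and 12730 to 17413 CPM in WT. The root markers PRP3, COBL9 and EXPA7 were at 0 in all 6 libraries. The 6 floral markers summed to 0.124 to 0.382 CPM in *se-2* and 0.0986 to 0.317 CPM in WT.

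At an adjusted p under 0.05 (edgeR quasi-likelihood test, Benjamini-Hochberg adjustment over all genes tested), 52 genes (0.267% of those tested) rose and 11 (0.0565%) fell in *se-2*. The raised genes were 38 protein-coding genes, 12 MIR genes, 1 long non-coding RNA and 1 antisense RNA, and all lowered genes were protein-coding. Without adjustment, 758 genes (3.9%) were higher and 622 (3.2%) lower at p under 0.05. Over all genes tested 49.9% of fitted fold changes lay above 0. In every called gene all *se-2* libraries lay on 1 side of all WT libraries, as they did, upwards and downwards, in 6.36% and 6.5% of all genes tested. The counts depended on the model and on the libraries in the fit. DESeq2 called 203 genes higher and 144 lower, a replicate block gave 207 and 190 in edgeR and 592 and 672 in DESeq2, and an edgeR fit of only the *se-2* and WT libraries called 3 higher (MIR156c, AT5G15845 and SPL9) and 2 lower (PP2-A1 and AAP2), so the balance of raised to lowered genes is not a fixed result. Leaving out a *se-2* library gave 35 raised and 9 lowered genes (replicate 1), 20 and 7 (replicate 2) or 19 and 5 (replicate 3). Leaving out a WT library gave 11 and 5 (replicate 1), 13 and 3 (replicate 2) or 19 and 4 (replicate 3). Each fit without 1 library has fewer replicates and residual degrees of freedom than the main fit. A lost call by itself therefore does not show dependence on the library left out. Of the called genes, 8 raised and 3 lowered genes kept the call in all 6 of these fits, and 15 raised and 3 lowered genes kept it in none. Of those 11 genes with a call in all 6 fits, MIR156c, AT5G15845 and PP2-A1 were also called with only the *se-2* and WT libraries, where MIR159b, AT1G13880, AT2G28150, AT3G11720, FEI1, AT1G62590, AILP1 and MRD1 were not (edgeR adjusted p between 0.0683 and 0.132). The direction of every called gene was the same in each fit.

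The mutated gene SE (AT2G27100; chr2:11572397-11576658 in TAIR10.1, 12 exons, plus strand) had 2.71, 2.45 and 3.07 CPM in the *se-2* libraries, against 5.59, 5.92 and 6.84 CPM in WT (log2 fold change -1.16 ± 0.18, edgeR adjusted p = 0.0235). The groups did not overlap, and SE transcript was still counted in every *se-2* library. Since the allele truncates the protein, the level is only a partial check of the labels. The call was lost in all 6 fits without 1 library, with adjusted p (edgeR quasi-likelihood test) of 0.074, 0.125 and 0.0597 when *se-2* replicates 1, 2 and 3 were left out in turn, and of 0.0653, 0.0825 and 0.109 for WT replicates 1, 2 and 3.

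Of all gene types, MIR genes had the highest median fold change, and the 12 that rose encode miRNAs of the miR156, miR159, miR164, miR167, miR168, miR171, miR172, miR396 and miR398 families. MIR156c, whose miRNA holds back the SPL genes of the change from juvenile to adult leaves, had 3.83, 5.96 and 6.97 CPM in *se-2* against 0.228, 0.341 and 0.277 CPM in WT. MIR159b had 3.38, 3.08 and 3.32 CPM in *se-2* against 0.456, 0.758 and 0.472 CPM in WT, and MIR159a 2.27, 2.28 and 2.22 CPM in *se-2* against 0.496, 0.478 and 0.618 CPM in WT. Both MIR159 genes, whose miRNAs act on MYB genes of the gibberellin pathway, had *se-2* libraries close to each other, and all of these lay above all WT libraries. The log2 fold changes were 4.29 for MIR156c (standard error 0.36), 2.52 for MIR159b (0.26) and 2.09 for MIR159a (0.29), with edgeR adjusted p of 0.000694, 0.00219 and 0.0113. MIR156c and MIR159b kept their calls without any 1 library, while MIR159a lost its call without WT replicate 1 or WT replicate 2, where its edgeR adjusted p was highest (0.075).

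MIR168a, whose miRNA acts on AGO1 mRNA, had 5.56, 2.74 and 2.42 CPM in *se-2* against 0.317, 0.235 and 0.700 CPM in WT (log2 fold change 3.15 ± 0.43, edgeR adjusted p = 0.0113). MIR167a, whose miRNA acts on ARF6 and ARF8, had 5.38, 2.72 and 3.56 CPM in *se-2* against 0.793, 0.508 and 0.521 CPM in WT (log2 fold change 2.68 ± 0.35, edgeR adjusted p = 0.00869). For both genes *se-2* replicate 1 was the highest library. MIR168a lost its call without WT replicate 1 or WT replicate 2 and MIR167a without WT replicate 2 or WT replicate 3, each with a highest edgeR adjusted p of 0.0687. MIR398b, whose miRNA acts on copper/zinc superoxide dismutase mRNAs, had 2.96, 6.72 and 6.53 CPM in *se-2* against 0.555, 0.993 and 0.635 CPM in WT. MIR172a, whose miRNA acts on AP2-like genes, had 1.96, 2.74 and 4.86 CPM in *se-2* against 0.139, 0.167 and 0.521 CPM in WT. In these 2 genes *se-2* replicate 1 was the lowest of the *se-2* libraries, and still above every WT library. Their log2 fold changes were 2.88 (standard error 0.50) and 3.60 (0.60), with edgeR adjusted p of 0.0357 and 0.0312, and that of MIR172a was 4.36 without WT replicate 3.

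All 3 MIR171 genes that rose belong to a family that acts on the HAM genes of the shoot meristem. MIR171c had 1.33, 2.76 and 3.68 CPM in *se-2*, against 0 CPM in WT replicates 1 and 3 and 0.0758 CPM (10 counts) in WT replicate 2. MIR171a had 0.520, 1.02 and 2.17 CPM in *se-2* against 0.0397, 0.0303 and 0.0651 CPM in WT. MIR171b had 0.563, 0.774 and 1.47 CPM in *se-2* against 0.109, 0.0986 and 0.0977 CPM in WT. Each was highest in *se-2* replicate 3 and lowest in *se-2* replicate 1 among the *se-2* libraries, and no groups overlapped. The log2 fold changes were 6.35 (standard error 0.96) for MIR171c, 4.79 (0.77) for MIR171a and 3.18 (0.53) for MIR171b, with edgeR adjusted p of 0.0162, 0.0252 and 0.0305. WT levels of MIR171a and MIR171c lay close to or under the floor, so their fold changes depend on few counts. Without WT replicate 2, the 1 WT library with a count, the fitted value of MIR171c was 10.88, which depends on the prior count and is no bound, and without *se-2* replicate 3 that of MIR171a was 4.10. MIR164b, whose miRNA acts on CUC genes of organ boundaries, had 2.01, 2.93 and 2.48 CPM in *se-2* against 0.179, 0.182 and 0.456 CPM in WT (log2 fold change 3.23 ± 0.52, edgeR adjusted p = 0.0242). MIR396b, whose miRNA acts on growth-regulating factor (GRF) genes, had 0.318, 0.449 and 0.657 CPM in *se-2* against 0.0198, 0.0379 and 0.0163 CPM in WT, with 2 of the WT libraries under the floor (log2 fold change 4.12 ± 0.67, edgeR adjusted p = 0.0252). The calls of MIR171a, MIR171b, MIR396b and MIR398b held only without *se-2* replicate 1, and those of MIR164b, MIR171c and MIR172a in 2 of the 6 fits. The highest edgeR adjusted p among these 7 genes was 0.172, for MIR398b without WT replicate 1, and for MIR171c it was 0.0697 without WT replicate 3.

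**Figure D1:**
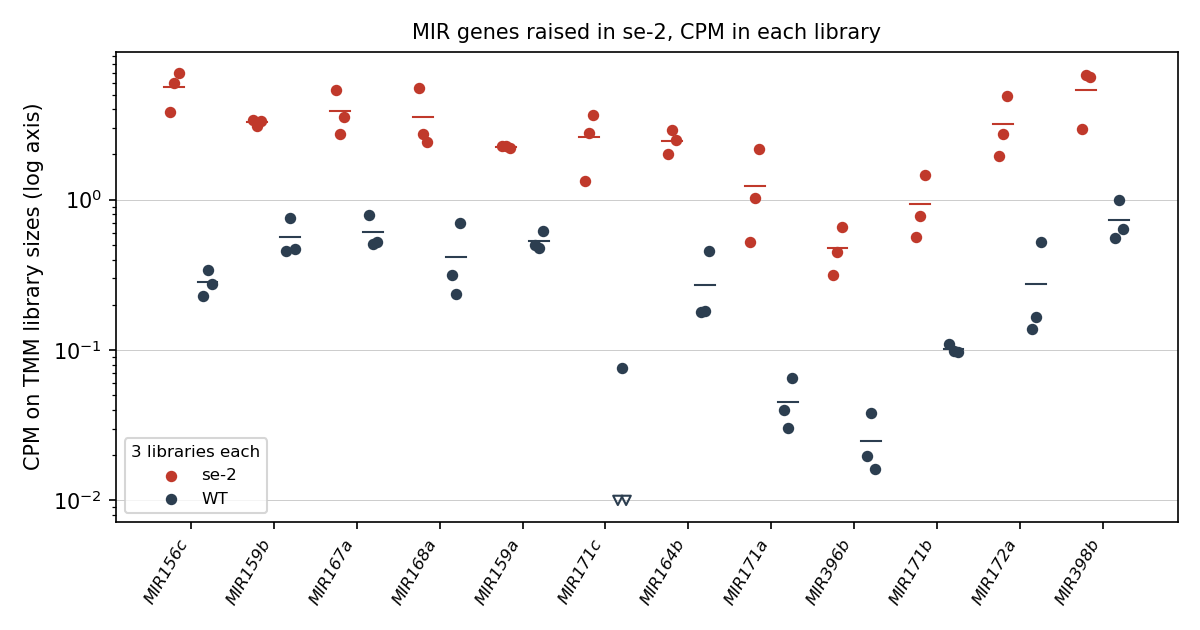
CPM of the 12 raised MIR genes (log axis) in each *se-2* library (red, left of each pair) and each WT library (dark, right), ordered by p; short lines are means, and the 2 open triangles at the bottom are WT libraries with a count of 0 for MIR171c. In each gene all *se-2* points lie above all WT points, as in MIR156c (3.83 to 6.97 against 0.228 to 0.341 CPM) and MIR159a (2.22 to 2.28 against 0.478 to 0.618 CPM).

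Over all 324 annotated MIR genes in the table, 150 had no count in any *se-2* or WT library, 93 had counts but too few for the test, and 81 were tested. The filter keeps a gene that reaches the minimum in a single genotype, so genes seen only in a mutant are kept while the same genes at WT level would not be, and the counts over tested genes are a description. Among the 81, 12 rose and 0 fell (0.267% and 0.0565% of all genes tested), 40 were higher and 6 lower at an unadjusted p under 0.05 (3.9% and 3.2% of all genes tested), and the median log2 fold change was 1.63 (1.58 with genes at 0 in every library of a group set to their bound against the floor). DESeq2, fitted without this filter on 24069 genes, called 25 MIR genes higher and 1 lower. Among the 93 not tested, the mean was higher in *se-2* for 52 and lower for 41. Of 52 MIR genes of known pri-miRNA structure, 40 were tested with a median of 2.16 (2.10 with genes at 0 set to their bound), 10 rose, 26 were higher and 0 lower at an unadjusted p under 0.05, and their summed level was 55.9, 86.4 and 88.1 CPM in *se-2* against 11.8, 16.7 and 24.9 CPM in WT. In the other annotated MIR genes 2 of 41 tested genes rose and 14 were higher and 6 lower at an unadjusted p under 0.05, to be read against the same shares. The number of raised MIR genes was 3 when WT replicate 1 or 2 was left out, 7 for WT replicate 3, 5 for *se-2* replicate 2 or 3 and 12 for *se-2* replicate 1. Since each gene has 1 value, cut, uncut and spliced precursors enter the same number.

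SPL9, AGO1, AGO2 and 4 genes of pentatricopeptide repeat proteins rose among the listed targets of miRNAs, and none fell. Of 119 listed targets, 102 were tested, and 7 rose and 0 fell (against 0.267% and 0.0565% of all genes tested). At an unadjusted p under 0.05, 30 were higher and 1 was lower (against 3.9% and 3.2% of all genes tested). The median log2 fold change was 0.50. DESeq2 called 18 higher and 1 lower. The count of raised targets was 4, 3 and 2 when *se-2* replicates 1, 2 and 3 were left out, and 1, 2 and 3 for WT replicates 1, 2 and 3. SPL9 (AT2G42200), a transcription factor of the adult leaf phase, had 3.72, 5.09 and 5.27 CPM in *se-2* against 0.546, 0.849 and 0.765 CPM in WT (log2 fold change 2.70 ± 0.34, edgeR adjusted p = 0.00746). Its call was lost only without WT replicate 1 (edgeR adjusted p = 0.0503). All 10 SPL genes tested had a fitted log2 fold change above 0, with a median of 0.76, and 3 of them were higher at an unadjusted p under 0.05. Of the 32 tested genes with a site for miR156c-5p, SPL9 was the 1 that rose (against 0.267% of all genes tested).

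AGO1 and AGO2, effectors of small RNAs that are themselves under miRNA control, rose. AGO1, the main effector of plant miRNAs and the target of miR168, had 48.6, 41.0 and 49.2 CPM in *se-2* against 22.0, 26.0 and 21.6 CPM in WT (log2 fold change 1.0 ± 0.17, edgeR adjusted p = 0.0379). AGO2, an effector in virus defence and the target of miR403, had 17.0, 13.8 and 16.2 CPM in *se-2* against 4.51, 4.69 and 7.37 CPM in WT (log2 fold change 1.51 ± 0.22, edgeR adjusted p = 0.0151). The groups of both genes were apart, as were those of MIR168a and MIR403 and, upwards, those of 6.36% of all genes tested. MIR403 had 0.967, 1.42 and 0.856 CPM in *se-2* against 0.109, 0.152 and 0.293 CPM in WT, and did not pass the test (log2 fold change 2.58 ± 0.53, edgeR adjusted p = 0.0818). AGO3, the neighbour of AGO2, had a log2 fold change of 2.32 ± 0.56 (edgeR adjusted p = 0.156). The call of AGO1 was lost without each of the 6 libraries, at most 0.171 without WT replicate 1, and that of AGO2 without *se-2* replicate 3, WT replicate 1 or WT replicate 2, at most 0.0844 without WT replicate 2 (edgeR adjusted p). DCL1, the target of miR162, had 20.5, 17.5 and 18.5 CPM in *se-2* against 12.1, 13.4 and 16.0 CPM in WT and did not pass (log2 fold change 0.44, edgeR adjusted p = 0.451). Of the 32 miRNA and siRNA biogenesis genes tested, AGO1 and AGO2 rose, SE fell, and 29 were not called. Of all genes tested 0.267% rose and 0.0565% fell.

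The 13 listed targets of miR161, which encode pentatricopeptide repeat (PPR) proteins of the kind that restores fertility and trims mitochondrial transcripts, were the target list with the most raised genes. Of these 13, 4 rose and 0 fell, against 0.267% and 0.0565% of all genes tested. AT1G62590 had 4.39, 3.31 and 4.43 CPM in *se-2* against 1.18, 1.08 and 1.12 CPM in WT. RPF6 (AT1G63130) had 7.61, 8.55 and 10.6 CPM in *se-2* against 3.56, 3.41 and 2.39 CPM in WT. In both genes every *se-2* library lay above every WT library. RPF3 (AT1G62930), which takes part in the processing of mitochondrial RNA, had 3.64, 5.16 and 3.87 CPM in *se-2* against 1.29, 1.20 and 0.830 CPM in WT. AT1G62910 had 2.24, 2.03 and 1.77 CPM in *se-2* against 0.585, 0.789 and 0.635 CPM in WT. The log2 fold changes of AT1G62590, RPF6, RPF3 and AT1G62910 were 1.84, 1.51, 1.92 and 1.59 (standard errors 0.22, 0.22, 0.33 and 0.27), with edgeR adjusted p of 0.00639, 0.0155, 0.0357 and 0.0332. AT1G62590 kept its call without any 1 library, RPF6 only without *se-2* replicate 1, and RPF3 and AT1G62910 in none of the 6 fits (at most 0.155 without WT replicate 3 and 0.167 without WT replicate 1). In all, 10 of the 13 were higher at an unadjusted p under 0.05 (3.9% of all genes tested) and 12 had a log2 fold change above 0 (49.9% of all genes tested), with a median of 1.51. That median holds for the listed genes only. Of 33 tested genes with a miR161.2 site of at most 4 unpaired bases, 4 rose (against 0.267% of all genes tested), 24 lay above 0 and the median was 0.44. Of 33 tested genes with such a site for miR161.1, 4 rose, 22 lay above 0 and the median was 0.47. The median was 0.08 for 247 tested genes whose annotated product names a pentatricopeptide repeat, a set that holds AT1G62590 and AT1G62910 but not RPF6 and RPF3, which are annotated as tetratricopeptide repeat-like. The 4 raised genes lie close together on chromosome 1 and share site sequences, and how the authors' counting split reads shared by such copies is not stated.

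A search with the miRNA of MIR400, chosen after values were seen, found sites for miR400 in the same 4 PPR genes, with 2 unpaired bases in AT1G62590, RPF6 and RPF3 and 3 in AT1G62910. Such sites were present in 54 genes (0.197%), of which 49 were tested and 5 rose, against 0.267% of all genes tested. As 4 of the 5 are the PPR genes already called above, the count is a description, and an action of miR400 was not tested. The fifth was AT1G32583, annotated as a tapetum determinant protein, which holds MIR400 on the same strand. Whether its site lies within MIR400 was not checked. AT1G32583 had 0.953, 1.36 and 1.02 CPM in *se-2* against 0.268, 0.235 and 0.147 CPM in WT (log2 fold change 2.33 ± 0.42, edgeR adjusted p = 0.0435, lost without each of the 6 libraries, at most 0.172 without WT replicate 2). MIR400 itself was at or under 0.0306 CPM in all 6 libraries, at or below the floor of each library, and was not tested. MIR161 had 0.859, 1.39 and 1.85 CPM in *se-2* against 0.0992, 0.0607 and 0.0977 CPM in WT, and did not pass (log2 fold change 4.00 ± 0.93, edgeR adjusted p = 0.133).

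ARF4, a repressor of auxin response held back by small RNAs made from TAS3, was the 1 raised gene among 4 tested targets of trans-acting siRNAs (against 0.267% of all genes tested). It had 11.2, 10.3 and 9.42 CPM in *se-2* against 4.18, 5.01 and 5.03 CPM in WT, with no overlap (log2 fold change 1.12 ± 0.17, edgeR adjusted p = 0.0151), and kept its call only without *se-2* replicate 3 (0.084 without WT replicate 1). TAS3A had 1.18, 1.42 and 2.23 CPM in *se-2* against 0.764, 0.645 and 0.911 CPM in WT, and TAS1A had 0.418, 0.186 and 0.260 CPM in *se-2* against 0.704, 0.864 and 1.30 CPM in WT. TAS3A lay above and TAS1A below WT in every library, as did 6.36% and 6.5% of all genes tested, and neither passed the test (edgeR adjusted p = 0.556 and 0.237).

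Other target lists held no called gene, and their values are given as such. Of the HD-ZIP III genes (5 tested), which set the upper side of the leaf, ATHB15 and PHV had log2 fold changes of 1.09 and 1.36 (edgeR adjusted p = 0.197 and 0.321), and the list median was 0.97. ARF8 had 12.7, 22.9 and 20.9 CPM in *se-2* against 4.82, 8.30 and 6.45 CPM in WT (log2 fold change 1.53, edgeR adjusted p = 0.119). GRF1 had a log2 fold change of 1.62 (edgeR adjusted p = 0.188), and all 7 GRF genes tested lay above 0. The miR398 targets CCS and CSD1, a copper chaperone and the superoxide dismutase it loads, had log2 fold changes of 1.81 and 1.38 (edgeR adjusted p = 0.155 and 0.381). CSD1 was at 59.6, 51.2 and 49.7 CPM in *se-2* against 16.8, 11.6 and 33.4 CPM in WT, so the WT libraries differed among themselves by more than the *se-2* libraries. The lists of miR172, miR399 with miR827, and miR472 targets and that of other miRNA targets had medians below 0 (-0.22, -0.14, -0.54 and -0.12). SNZ, an AP2-like repressor of flowering, had 0.188, 0.279 and 0.153 CPM in *se-2* against 0.744, 1.17 and 2.31 CPM in WT (log2 fold change -2.76, edgeR adjusted p = 0.091), and 4 of the 6 tested miR172 targets were below 0. The 5 miR393 targets had a median of -0.01 and the 3 HAM genes one of 0.18.

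**Figure D2:**
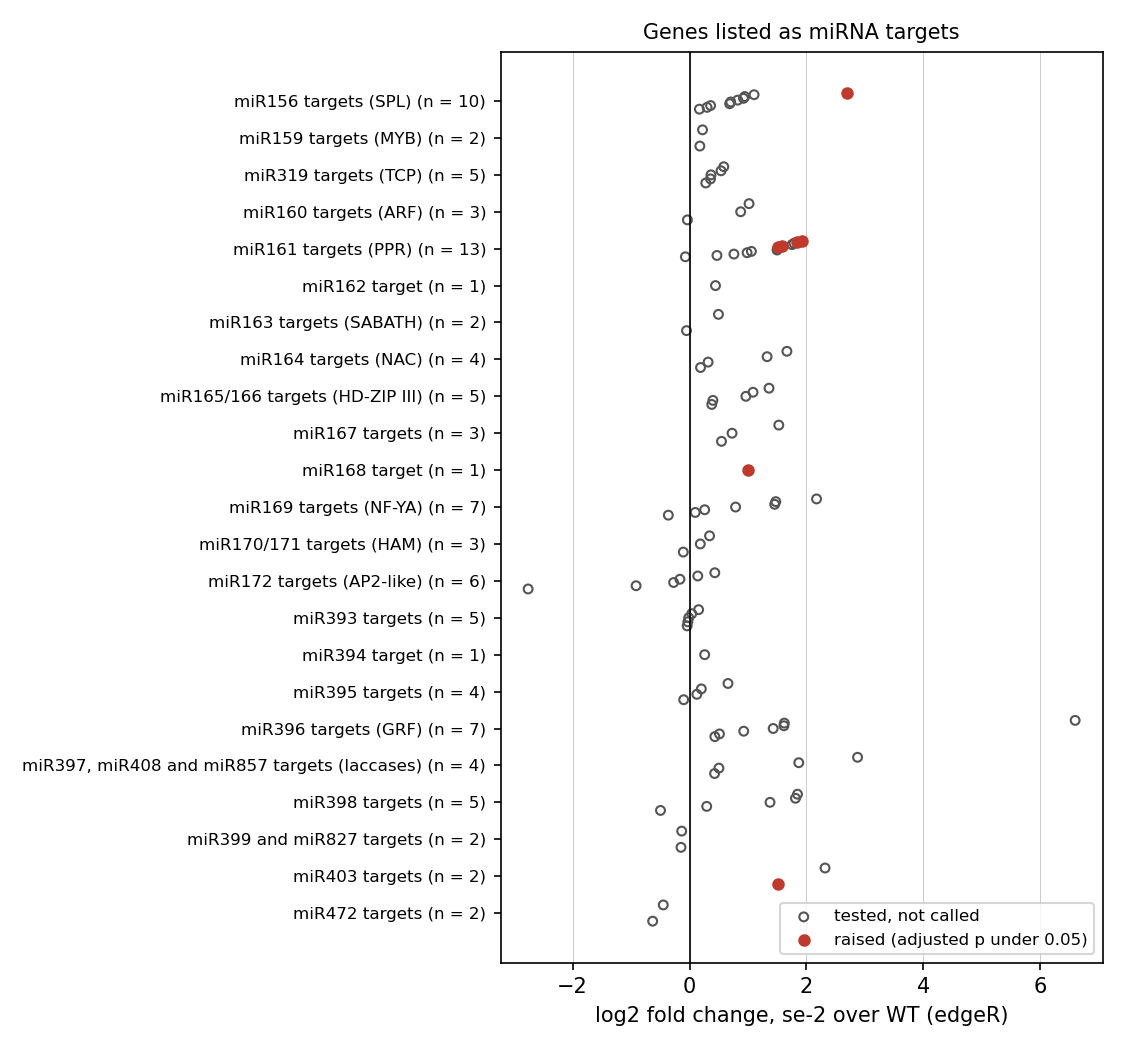
Fitted log2 fold change of *se-2* over WT for each tested gene in the lists of miRNA targets, 1 row a list with its number of tested genes; filled red points passed an adjusted p under 0.05 and open points did not. The 13 miR161 targets centre on 1.51 and the 10 SPL genes on 0.76, while the 5 miR393 targets lie around -0.01; the far right point, at 6.60, is GRF8, which had no count in WT and at most 0.253 CPM in *se-2*, so its fitted value is no measure of its fold change.

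Genes outside the miRNA lists with the smallest p included a long non-coding RNA, a pair of lipid transport family genes and a receptor kinase. The long non-coding RNA AT5G15845 had 2.25, 3.95 and 3.04 CPM in *se-2* against 0.179, 0.0986 and 0.212 CPM in WT (log2 fold change 4.27 ± 0.40, edgeR adjusted p = 0.00125), and kept its call without any 1 library. On chromosome 5 (5173081 to 5178291, plus strand) it lies opposite COL1, which it overlaps by 1807 bases, and meets the flowering regulator CO by 5 bases. COL1 had a log2 fold change of -0.07 and CO one of -0.62 (edgeR adjusted p = 0.9998 and 0.995, both with overlapping groups). The library preparation kept strand, but whether the authors' counting used it is not stated. AT1G13880, an ELM2 domain protein, had 8.17, 8.87 and 9.58 CPM in *se-2* against 3.41, 2.69 and 3.17 CPM in WT (log2 fold change 1.52 ± 0.15, edgeR adjusted p = 0.00163). AT2G28150, a DUF966 protein, had 10.1, 9.18 and 11.3 CPM in *se-2* against 4.02, 3.97 and 4.30 CPM in WT (log2 fold change 1.32 ± 0.14, edgeR adjusted p = 0.00308). Their WT libraries were within a narrow range, and both calls held without any 1 library. AT3G11720, of a lipid transport family, had 6.49, 5.71 and 6.94 CPM in *se-2* against 1.90, 2.20 and 1.95 CPM in WT (log2 fold change 1.66 ± 0.18, edgeR adjusted p = 0.00325). AT3G26460, of the same family, had 2.78, 2.37 and 1.76 CPM in *se-2* against 0.228, 0.190 and 0.0814 CPM in WT (log2 fold change 3.75 ± 0.52, edgeR adjusted p = 0.0113, at most 0.0687 without WT replicate 2 and also lost without WT replicates 1 and 3). FEI1, a receptor kinase of cell wall synthesis, had 34.5, 34.0 and 31.1 CPM in *se-2* against 16.4, 15.2 and 13.7 CPM in WT (log2 fold change 1.13 ± 0.14, edgeR adjusted p = 0.00639). AT3G11720 and FEI1 kept their calls without any 1 library.

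GAMMA-TIP, an aquaporin of the vacuolar membrane, was among the 15 raised genes with the smallest p. It had 27.7, 28.2 and 28.2 CPM in *se-2* against 13.2, 8.80 and 10.3 CPM in WT (log2 fold change 1.38 ± 0.19, edgeR adjusted p = 0.0113). EMB975, of the tetratricopeptide repeat family, had 5.54, 5.40 and 5.24 CPM in *se-2* against 1.30, 2.17 and 1.51 CPM in WT (log2 fold change 1.70 ± 0.23, edgeR adjusted p = 0.0102). In both genes the *se-2* libraries were closer to each other than the WT libraries. GAMMA-TIP lost its call without WT replicate 2 (0.0687) or 3 and EMB975 without WT replicate 1 or 3 (0.0601). AT2G01870, on the strand opposite EMB975 and overlapping it by 449 bases, had 1.16, 0.681 and 1.04 CPM in *se-2* against 3.07, 2.46 and 2.49 CPM in WT (log2 fold change -1.47, edgeR adjusted p = 0.0777).

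The remaining 22 raised protein-coding genes fall outside the rule for named genes and were picked after their values were seen, to give every raised gene by function. Kinases and their partners were GRIK1, which activates the energy sensor SnRK1 (log2 fold change 1.21), CIPK3 of calcium signalling (1.48) and the S-locus lectin kinase AT1G61400 (3.40, or 4.30 without WT replicate 2). Transporters were ABCC7 (2.16) and the sugar transporter family member AT3G05165 (1.25), and FP3 (1.10) is a heavy metal binding protein. Chromatin and gene control genes were the histone methyltransferase SUVR5 (1.09), the jumonji protein PKDM7D (0.95), the homeodomain-like AT3G11280 (1.28) and AFP3 (2.44), of a family that restrains abscisic acid response. Genes of the cell surface and wall were XTH6 (1.01), which remodels xyloglucan, the lipid transfer protein AT1G48750 (1.89), the glycine-rich DOT1 (1.39) and the CAP family protein AT5G66590 (1.84). The nucleolar Noc2p family gene RBL (1.27), the exonuclease family gene AT3G52050 (1.12), the glutaredoxin AT3G21460 (1.51), the metalloendopeptidase AT5G42620 (1.09), TRM13 (2.36), and AT2G19460 (1.25), AT3G48640 (2.82) and AT5G22875 (1.48), which have no assigned function, completed the list. In each of the 22 the *se-2* libraries lay above the WT libraries, and all 22 lost their call in at least 3 of the 6 fits without 1 library, with highest edgeR adjusted p between 0.0687 and 0.223. XTH6 had 21.3, 26.6 and 23.2 CPM in *se-2* against 10.7, 13.1 and 11.6 CPM in WT.

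**Figure D3:**
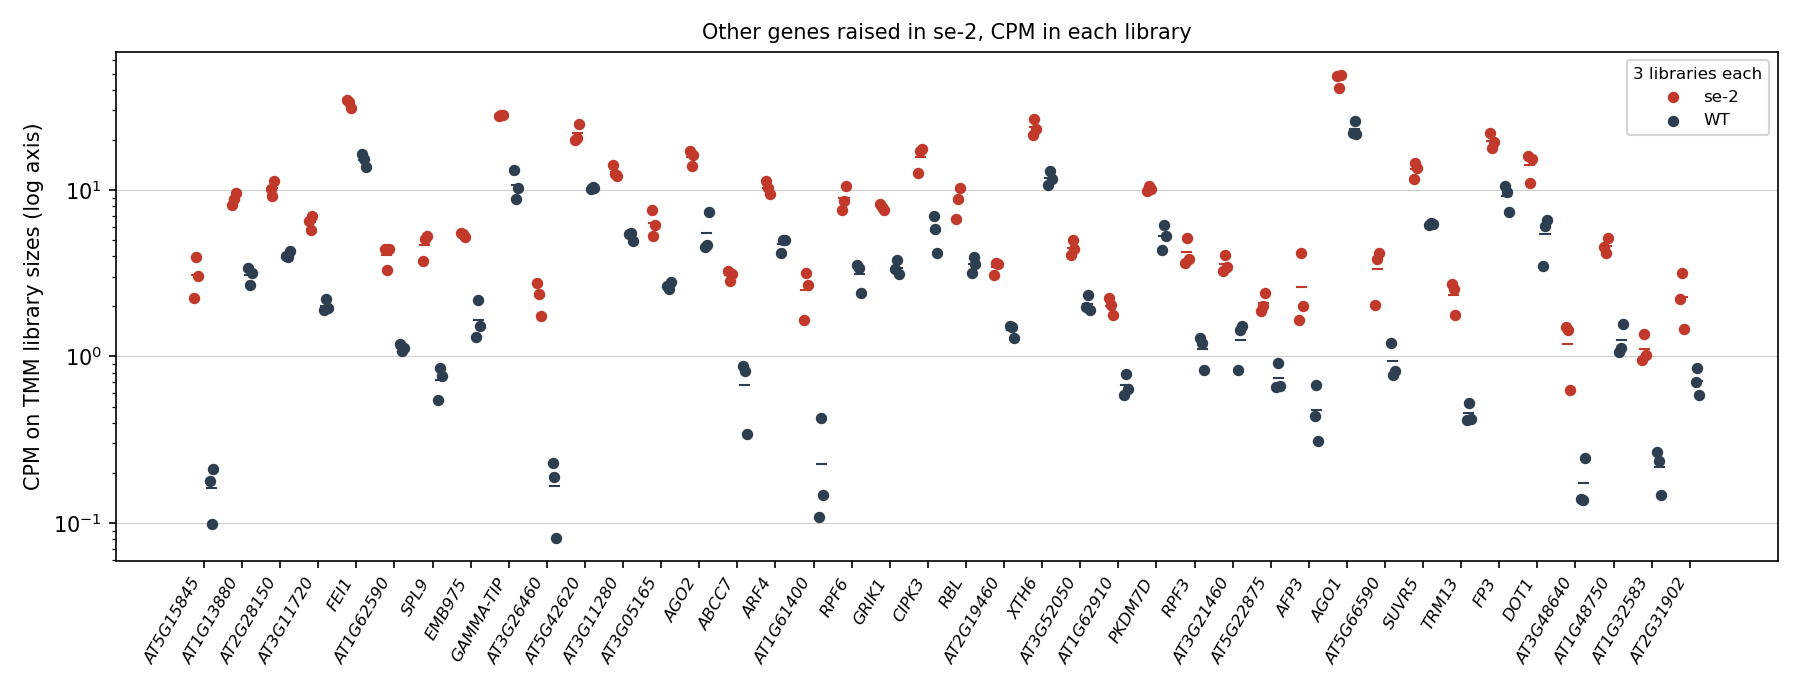
CPM of the 40 raised genes that are no MIR genes (log axis), in each *se-2* library (red, left of each pair) and each WT library (dark, right), ordered by p from left to right; short lines are means. No pair of groups overlaps, and the widest gaps are those of AT5G15845 (2.25 to 3.95 against 0.0986 to 0.212 CPM) and AT3G26460 (1.76 to 2.78 against 0.0814 to 0.228 CPM).

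The antisense RNA AT2G31902 runs along 9509 bases of the myosin gene XIF on the opposite strand. It had 2.21, 3.17 and 1.47 CPM in *se-2* against 0.704, 0.849 and 0.586 CPM in WT (log2 fold change 1.67 ± 0.30, edgeR adjusted p = 0.0444), and XIF had 0.938, 0.449 and 0.948 CPM in *se-2* against 1.54, 1.64 and 0.651 CPM in WT. The antisense groups were apart and those of XIF overlapped (log2 fold change -0.71, edgeR adjusted p = 0.989). AT2G31902 kept its call only without *se-2* replicate 3 (0.189 without WT replicate 3). Of the 38 raised protein-coding genes, 4 lay within 1000 bases of an annotated MIR gene, against 190 (1.03%) of the 18437 tested protein-coding genes, and 0 of the 11 lowered genes did. Those 4 were AT1G32583 with MIR400, SPL9 with MIR156j on the opposite strand, RPF6 with MIR5652 on the opposite strand, and AT2G19460, which lies 379 bases from MIR5012. MIR156j was at 0 in all 6 libraries and MIR5652 in 5 of them.

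Of the 11 genes that fell, PP2-A1 (AT4G19840; chr4:10773804-10775942), a lectin of the phloem, changed with the smallest p. It had 2.09, 3.33 and 2.51 CPM in *se-2* against 21.1, 18.5 and 22.8 CPM in WT (log2 fold change -2.98 ± 0.24, edgeR adjusted p = 0.000694), and its call held without any 1 library. In leaf RNA of mixed cells, fewer cells of a type and less RNA per cell cannot be told apart. The other 7 phloem genes were not called, and PP2-A2, next to PP2-A1, had 0.873, 0.511 and 0.566 CPM in *se-2* against 0.129, 0 and 0 CPM in WT (log2 fold change 3.84, edgeR adjusted p = 0.237). AAP2, an amino acid permease that moves amino acids into the phloem, had 2.13, 2.94 and 3.23 CPM in *se-2* against 13.0, 11.7 and 11.3 CPM in WT (log2 fold change -2.12 ± 0.32, edgeR adjusted p = 0.0158). Its groups lay far apart, yet the call was lost without each of the 6 libraries (at most 0.0821 without *se-2* replicate 2).

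MYB51, an activator of indolic glucosinolate synthesis, had 1.92, 2.42 and 1.22 CPM in *se-2* against 5.27, 6.13 and 7.24 CPM in WT (log2 fold change -1.74 ± 0.24, edgeR adjusted p = 0.0113). WRKY46, a transcription factor of defence and abscisic acid response, had 2.01, 1.39 and 1.12 CPM in *se-2* against 5.63, 4.47 and 5.14 CPM in WT (log2 fold change -1.75 ± 0.30, edgeR adjusted p = 0.0368). Both factors were lower in every *se-2* library. The NB-LRR resistance gene AT1G63350 had 0.902, 0.789 and 0.504 CPM in *se-2* against 3.81, 3.47 and 4.21 CPM in WT (log2 fold change -2.38 ± 0.35, edgeR adjusted p = 0.0155). The legume lectin gene AT3G16530 had 3.10, 4.95 and 2.17 CPM in *se-2* against 9.68, 15.7 and 14.7 CPM in WT (log2 fold change -1.97 ± 0.30, edgeR adjusted p = 0.0166). CYP71B24, a cytochrome P450, had 0.556, 0.604 and 0.657 CPM in *se-2* against 2.93, 2.54 and 2.21 CPM in WT (log2 fold change -2.08 ± 0.28, edgeR adjusted p = 0.0102). None of these groups overlapped. AILP1, an aluminium-induced protein, had 69.2, 57.7 and 55.9 CPM in *se-2* against 123.2, 158.7 and 148.4 CPM in WT, and GRP-3, a glycine-rich wall protein, 67.5, 64.9 and 82.5 CPM in *se-2* against 161.4, 132.4 and 188.1 CPM in WT (log2 fold changes -1.24 and -1.17, standard errors 0.15 and 0.20, edgeR adjusted p = 0.00639 and 0.0357). These 2 were the most abundant lowered genes by CPM. AILP1 kept its call without any 1 library, and GRP-3 in none of the fits (at most 0.164 without *se-2* replicate 2). MYB51 lost it without WT replicates 2 (0.0636) and 3, CYP71B24 without WT replicates 1 (0.0586) and 2, AT3G16530 without *se-2* replicates 1 and 3 and WT replicates 2 (0.0782) and 3, and AT1G63350 and WRKY46 in all fits but that without *se-2* replicate 1 (at most 0.0812 and 0.166, both without *se-2* replicate 2).

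MRD1 (AT1G53480; chr1:19963047-19964712, minus strand), named for its response in a methionine overaccumulation mutant, had no count in any *se-2* library and 40, 219 and 126 counts in the WT libraries. With the floor of 3 counts per library averaged over the *se-2* libraries, its level in *se-2* was at least 36.0-fold lower (edgeR adjusted p = 0.00639, a call kept without any 1 library and lost with only the *se-2* and WT libraries, 0.132, or 0.052 with a replicate block in that fit). HEI10 on the other strand, a ring finger protein of meiotic crossovers that shares 1446 bases with MRD1, also had no count in *se-2* and 0.169, 0.0986 and 0.130 CPM in WT (edgeR adjusted p = 0.268). The long non-coding RNA AT1G07887 at the same place was at 0 in *se-2* and in WT replicate 1. MRD1 was at 1.71, 1.74 and 1.54 CPM in the *se-2 hen2-2* libraries, which carry the same *se-2* allele, and the difference of its *se-2* effect between the backgrounds with and without *hen2-2* did not pass (edgeR adjusted p = 0.14).

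**Figure D4:**
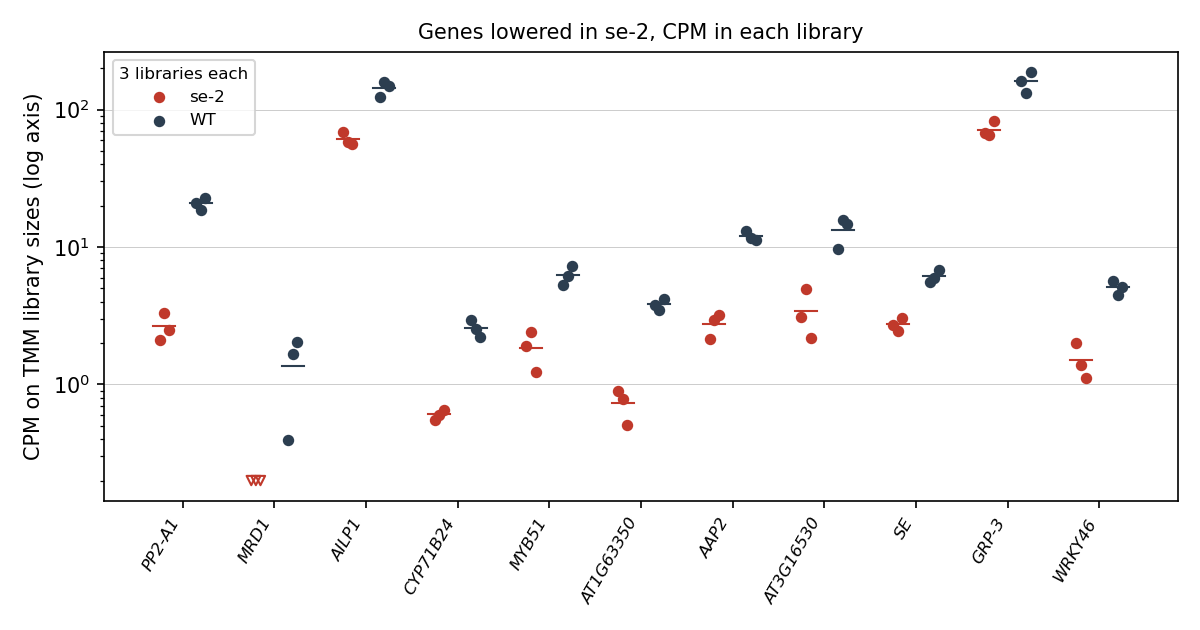
CPM of the 11 lowered genes (log axis) in each *se-2* library (red, left of each pair) and each WT library (dark, right), ordered by p; short lines are means, and the open triangles at the bottom stand for the 3 *se-2* libraries with a count of 0 for MRD1. All *se-2* points lie below all WT points of the same gene, as in PP2-A1 (2.09 to 3.33 against 18.5 to 22.8 CPM) and AILP1 (55.9 to 69.2 against 123.2 to 158.7 CPM).

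Gene classes were set side by side with all genes tested, as a description. NB-LRR disease resistance genes leaned downwards, with 19 lower and 2 higher of 117 tested at an unadjusted p under 0.05 (against 3.2% and 3.9% of all genes) and a median log2 fold change of -0.30. Receptor-like and cysteine-rich kinases had 30 lower and 9 higher of 226 (median -0.21), cytochrome P450s 15 and 7 of 133 (-0.10) and UDP-glycosyltransferases 9 and 1 of 97 (-0.11). Aquaporins leaned upwards, with 5 higher and 0 lower of 22 and a median of 0.44, and auxin-related proteins had 10 higher and 2 lower of 97 (0.22). All 22 photosystem antenna and Rubisco genes lay below 0 with a median of -0.20, a narrow shift in which none was called, and LHCB5 had 802.1, 732.0 and 807.0 CPM in *se-2* against 1113, 1275 and 876.8 CPM in WT. Ribosomal proteins had a median of -0.06.

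Genes of sulfur limitation held no call and 5 of 15 higher at an unadjusted p under 0.05 (3.9% of all genes tested), with a median of 1.50. LSU1, a marker of this response, had 0.483, 1.42 and 0.871 CPM in *se-2* against 0.218, 0.0228 and 0.195 CPM in WT, and SDI1, which restrains glucosinolate synthesis, 0.585, 0.681 and 0.168 CPM in *se-2* against 0.0893, 0 and 0 CPM in WT (edgeR adjusted p = 0.119 and 0.217). Levels of both were low, and their groups did not overlap, as upwards in 6.36% of all genes tested. All 5 indolic glucosinolate genes lay below 0, with MYB51 the 1 called. Of 14 flowering time genes 9 were tested and none was called. MAF4 had no count in *se-2* and 0.327, 0.197 and 0.293 CPM in WT, and FUL had 3.57, 3.42 and 1.36 CPM in *se-2* against 0.774, 0.235 and 0 CPM in WT (edgeR adjusted p = 0.318 and 0.371). Among 17 defence genes, none called, the defensin gene AT2G26020 had no count in *se-2* and 0, 2.14 and 0.846 CPM in WT (edgeR adjusted p = 0.494). In the 21 genes of NEXT, the exosome and XRN exonucleases 0 were called in either direction, with 1 higher and 0 lower at an unadjusted p under 0.05, and RRP46 had a log2 fold change of 1.36 (edgeR adjusted p = 0.0765). Of the 20 SR splicing factor genes, 17 lay below 0 with a median of -0.18 and none reached an unadjusted p under 0.05. The 19 circadian clock genes held no call and none under 0.05, and FKF1 ran from 0.65 to 5.54 CPM in *se-2* and from 1.45 to 10.1 CPM in WT, highest in replicate 1 of both.

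**Figure D5:**
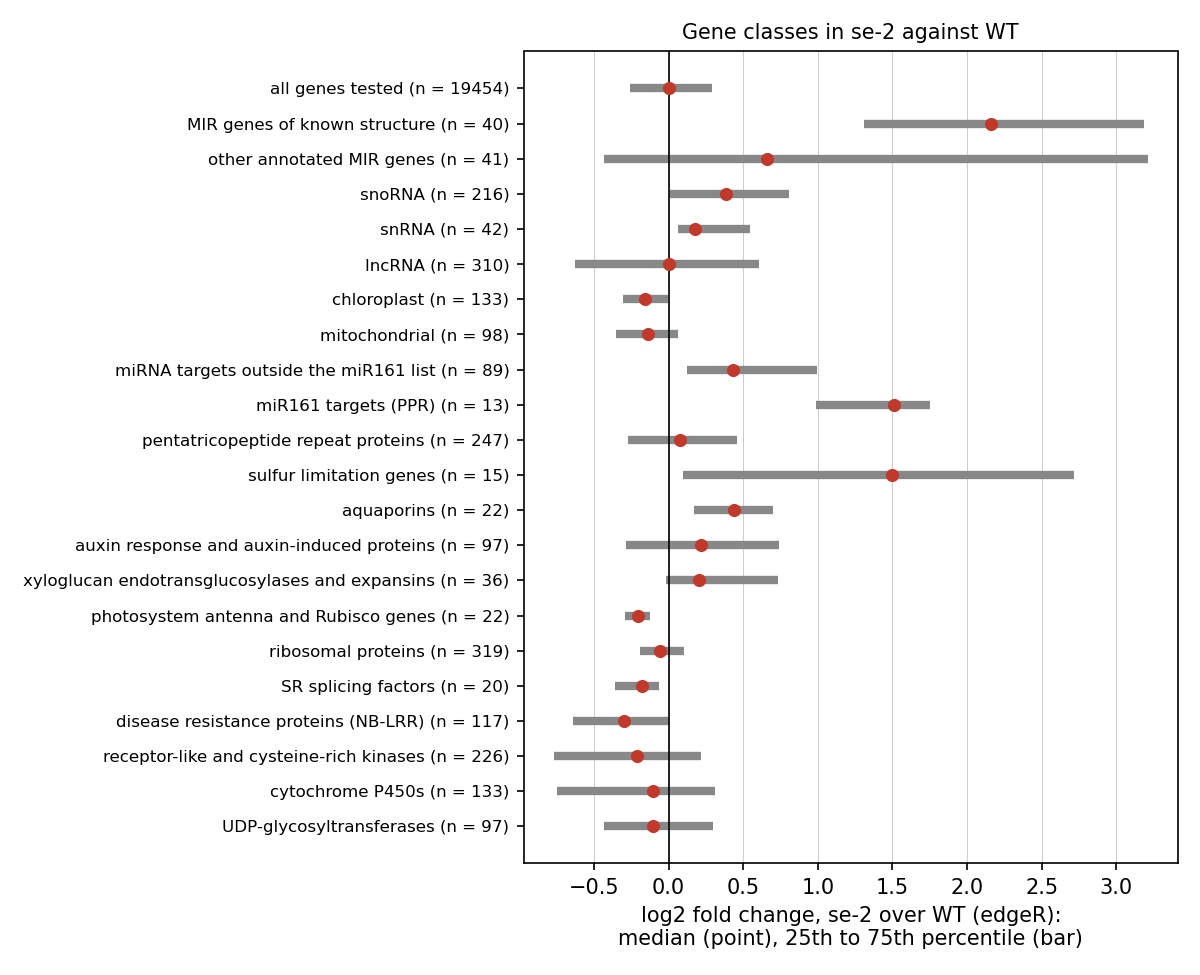
Median (points) and range from the 25th to the 75th percentile (bars) of the fitted log2 fold change of *se-2* over WT for gene classes, with the number of tested genes in brackets. MIR genes of known structure (median 2.16), miR161 targets (1.51) and sulfur limitation genes (1.50) lie furthest right of the classes drawn, and NB-LRR genes (-0.30) furthest left; lists that are not drawn went beyond some of these, such as the miR472 targets (-0.54) and the 2 miR403 targets (1.91). The bar of the 15 sulfur limitation genes reaches down to 0.10.

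Small nuclear transcripts held no call. Of 216 snoRNAs tested none was called, 12 were higher and 0 lower at an unadjusted p under 0.05 (3.9% and 3.2% of all genes tested), and the median was 0.38. The 42 snRNAs had a median of 0.17 with 2 higher and 2 lower, and the 310 long non-coding RNAs, of which AT5G15845 rose, a median of 0.00 with 15 in each direction, near those shares. Exon number is of interest because SE acts in splicing and, per the study's introduction, enhances transcription of genes without introns. Protein-coding genes made of a single exon had a median of 0.03 (2476 tested, 8 raised, 1 lowered), and those with more exons one of -0.01 (15961 tested, 30 raised, 10 lowered). By gene length, 14 of 4606 protein-coding genes of 3385 bases or more rose and 1 fell, and 9 of 4614 of at most 1764 bases rose and 4 fell. Of all tested protein-coding genes 0.206% rose and 0.0597% fell, against between 0.188% and 0.323% raised in these classes.

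The same fit holds the *hen2-2* and *se-2 hen2-2* libraries, and the comparisons with WT share the WT libraries, so values stand here beside each other. The log2 fold changes against WT in *se-2*, in *hen2-2* and in *se-2 hen2-2* were 4.29, 2.12 and 4.37 for MIR156c, 3.15, 0.79 and 4.27 for MIR168a, 2.52, 3.28 and 4.23 for MIR159b, 1.0, -0.06 and 0.52 for AGO1, and -2.98, -0.34 and -2.27 for PP2-A1. Tested directly, *se-2* minus *hen2-2* was 2.17 for MIR156c, 2.36 for MIR168a, 1.05 for AGO1 and -2.64 for PP2-A1 (edgeR adjusted p = 0.0134, 0.0293, 0.0246 and 0.000644), and -0.76 for MIR159b (0.355). This contrast shares the *se-2* libraries with the comparison against WT, and 0.108% of all genes tested were higher and 0.36% lower in it at an adjusted p under 0.05. Of the 52 raised genes 13 were higher in it, and of the 11 lowered genes 7 were lower. In *hen2-2* against WT, 47 of the 52 raised genes also lay above 0 (median 0.97) and 14 were called higher. There, 10 of the 11 lowered genes lay below 0 (median -0.34) and 0 were called. The shares over all genes tested were not taken for *hen2-2* against WT. The genes were also selected by their levels in the same WT libraries, which favours the same direction here. These counts therefore do not show a shared response. The difference of the *se-2* effect with and without *hen2-2* passed for 1 called gene, AT3G11720, where 0.0103% of all genes tested had a positive and 0.00514% a negative difference that passed.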

How the data were processed

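Per the labels and the study's methods, the authors sequenced stranded libraries of RNA depleted of ribosomal RNA, trimmed reads (the first 12 bases included), removed ribosomal RNA reads with Bowtie, aligned to TAIR10 with HISAT2 and made counts per gene with StringTie and its helper program from TAIR annotation release 46 and pri-miRNA coordinates. Tool versions are not given in the sources used here. The deposited counts are not normalized. They derive from coverage and an unstated read length, so a count need not be a single read pair, and floors of 3 counts cover counting error only.

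All 12 libraries of RNA-seq 2 entered 1 edgeR 4.0.16 fit in R 4.3.3 (filterByExpr by genotype, TMM, quasi-likelihood F test, two-sided, genotype only, contrast *se-2* minus WT), with Benjamini-Hochberg adjustment over all 19454 genes tested and calls at 0.05. The study names 3 biological replicates per genotype. In simulated counts for this comparison (19099 genes in the step, 200 changed), 39 of 50 genes raised by 3 on the log2 scale and 16 of 50 raised by 1.5 were recovered, 30 of 50 lowered by 3 and 18 of 50 lowered by 1.5, and 4 unchanged genes were called. The simulated libraries were drawn independently of each other. Deviations that real libraries share were not part of the simulation, so recovery and false calls in the real data can differ. Standard errors are the absolute log2 fold change over the root of F.

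Names, types, positions and sequences came from RefSeq TAIR10.1, which matched 32547 of 32832 identifiers; the other 285 are organellar. Counts carry no coordinates. Sites were searched without gaps in all transcripts. Named genes are SE, the 15 raised and 11 lowered genes with the smallest p, called list members and MIR genes, and, in lists without a call, at most 2 members with the smallest p. AGO3, GRF8, PP2-A2, MIR161, MIR400, MIR403, AT1G32583, AT2G31902 and genes that overlap or neighbour a named gene were added after their values were seen. Members and lists were chosen with earlier results of these data known. Alternatives were DESeq2 1.42.0, RLE size factors, no filter, 50 counts in 3 libraries, a term for replicate number (edgeR and DESeq2), a term for libraries over 100 M (1000000) counts, only 6 libraries with and without that block, nuclear genes only, and 1 library left out. Small RNA libraries and RNA-seq 1 were not used here.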

Additional observations from a re-analysis of the deposited data

Results flagged for a closer look

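The rise of AT3G11720, a gene of a lipid transport family, differed between backgrounds. Its log2 fold change was 0.20 in *se-2 hen2-2* against WT and 1.66 in *se-2* against WT, and the *se-2* effect in the *hen2-2* background minus that in the WT background was -1.97 (standard error 0.26, edgeR quasi-likelihood test of the interaction, adjusted p = 0.0408). Levels were 2.21, 2.30 and 2.48 CPM in *se-2 hen2-2* against 2.76, 3.34 and 2.52 CPM in *hen2-2*, and 6.49, 5.71 and 6.94 CPM in *se-2* against 1.90, 2.20 and 1.95 CPM in WT. The cause was not tested.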

How the results depend on the processing

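Every called gene kept its direction under all 16 alternatives run. RLE size factors, no filter, a minimum of 50 counts and nuclear genes only moved no count of called genes by more than 1.5 times. DESeq2 called 203 genes higher and 144 lower, 25 MIR genes higher and 1 lower, and 18 listed targets higher and 1 lower. A term for libraries over 100 M counts gave 79 genes raised and 45 lowered, 2 MIR genes lowered and 1 target lowered. With only the *se-2* and WT libraries in the fit, 3 genes rose and 2 fell, 1 MIR gene and 1 target rose, and SE was at -1.16 (edgeR adjusted p = 0.131); fewer residual degrees of freedom are part of that alternative, and no other cause was tested. Without 1 library, the counts ran from 11 to 35 raised genes, 3 to 9 lowered genes, 3 to 12 raised MIR genes and 1 to 4 raised targets, and SE from -1.24 to -1.07. Fewer residual degrees of freedom are part of these fits as well.

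The correlations of deviations from the group means between *se-2* and WT libraries of the same replicate number were 0.446, 0.00648 and 0.177. Replicates 1 and 3 lay above the limit of 0.1 set for pairing, and replicate 2 below it. The main fit did not take the numbers as pairs, so what libraries of the same number share stays in its spread. A replicate block in edgeR gave 207 genes raised and 190 lowered, 23 MIR genes raised and 2 lowered, and 21 targets raised and 1 lowered. The replicate block in DESeq2 gave 592 and 672 genes, 35 and 3 MIR genes, and 28 and 2 targets. With only the 6 libraries and the replicate block, 47 genes rose and 42 fell, and SE was at -1.16 (edgeR adjusted p = 0.052). *se-2* replicate 1 was the library most like its WT namesake. The 93 MIR genes under the filter entered the edgeR fit with no filter, which also called 12 MIR genes higher and 0 lower. They entered the DESeq2 fits as well, which did not use this filter.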
